A study of Homo sapiens with 24 samples.

Results

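MYC, MAX and 7 of their relatives were followed by RNA-seq through knockdown of POM121 in 2 human prostate cancer sublines. The 9 genes (MYC, MYCN, MAX, MXD1, MXD3, MXD4, MXI1, MNT and MLX) were taken by symbol from a deposited table of 25277 symbols. All 9 were found, and where a symbol occurred on several lines the line with the highest mean was used. DU145DR and 22Rv1DR are called aggressive sublines of DU145 and 22Rv1 in the labels, and such sublines are known as models of docetaxel resistance. Both parent lines were purchased from ATCC. In each subline 1 arm was left as control and 2 arms received an siRNA against POM121, siPOM121 construct 1 or construct 2. No time after treatment is given. The labels say only "Control" of the third arm, so it cannot be told whether those cells received a non-targeting siRNA. A response to siRNA delivery therefore cannot be told apart from loss of POM121. Every library was read on 2 lanes and deposited as 2 samples, so the 24 samples stand for 12 libraries, 2 in each of 6 groups. Library codes start with 1 or 2 in DU145DR and with 4 or 5 in 22Rv1DR, and the letters A, B and C stand for control, construct 1 and construct 2. Separate cultures for the libraries of a group are not stated, so the p-values reflect library spread alone, which may be technical. POM121 is a nucleoporin of the nuclear membrane, and work on it in prostate cancer has asked how it affects the nuclear entry of transcription factors, MYC among them.

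MYC is a transcription factor that binds DNA only as a dimer with MAX. The favoured site is the E-box, and MYC-MAX dimers there raise transcription of genes for ribosome biogenesis, nucleotide and polyamine synthesis and cell cycle entry. MXD1, MXD3, MXD4, MXI1 (also known as MXD2) and MNT compete for MAX and bring the SIN3 corepressor with its histone deacetylases to the same sites. MLX is a MAX-like partner that binds some MXD proteins, MNT and the glucose sensors MLXIP and MLXIPL. Gain or high expression of MYC is common in prostate cancer, and MYCN is a mark of its neuroendocrine forms. RNA levels say nothing direct of the location or activity of these proteins.

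The E-box, spelled CACGTG and the same on both strands, was searched in RefSeq promoter windows of GRCh38.p14, which run from 250 bases before to 50 bases after a gene's start. Of the 9 genes 8 had a window. MXD4, MNT and MLX each held 1 match, at 238, 193 and 50 bases before the start, and the windows of MYCN, MAX, MXD1, MXD3 and MXI1 held none. For comparison, 7.26% of all 35116 promoter windows of the same length held the motif. The sequences are the stretches before the start of MXD4 and MXD3, the members with the largest increases in DU145DR, and 30 bases around the matches of MNT and MLX. Each is written 5′ to 3′ on the gene's strand, with the E-box in capitals. The MXD4 stretch is chr4:2262110-2262359 (minus strand), that of MXD3 is chr5:177312753-177313002 (minus strand), that of MNT is chr17:2401236-2401265 (minus strand) and that of MLX is chr17:42567038-42567067 (plus strand).
MXD4: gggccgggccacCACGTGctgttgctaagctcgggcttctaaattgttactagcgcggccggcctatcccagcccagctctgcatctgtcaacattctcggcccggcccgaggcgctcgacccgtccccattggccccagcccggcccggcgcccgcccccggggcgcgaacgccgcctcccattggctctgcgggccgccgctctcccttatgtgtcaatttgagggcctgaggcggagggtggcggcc
MXD3: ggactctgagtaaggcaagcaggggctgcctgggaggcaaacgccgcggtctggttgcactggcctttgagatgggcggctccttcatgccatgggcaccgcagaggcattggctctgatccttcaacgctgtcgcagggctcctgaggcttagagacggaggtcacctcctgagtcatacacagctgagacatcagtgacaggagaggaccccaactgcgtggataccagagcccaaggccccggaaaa
MNT: ccctgcccgggcCACGTGtgcgcgcgccgg
MLX: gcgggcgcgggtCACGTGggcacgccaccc
A match is a run of letters and no evidence of binding, and its absence says only that these letters are not in the window.

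Values are FPKM, read fragments scaled to transcript length and library total. Genes and libraries are set side by side on this scale, which does not correct for differences in RNA composition between libraries. The deposited table sets values at or under 1 FPKM to 0, and the sequencing depth is unknown. MYCN was listed at 0 in all 24 samples, and the other 8 members were above the floor in all 24. A group's level is the power of 2 of its mean log2 FPKM, and ± beside a log2 fold change is the moderated standard error over 2 libraries against 2. Changes were called with limma at an adjusted p under 0.05 (Benjamini-Hochberg over 13622 symbols), and both constructs of a line share its control libraries. The targeted gene was lower with both constructs. POM121 stood at 21.4 FPKM in DU145DR controls against 13.4 and 12.8 with constructs 1 and 2, and at 38.2 against 7.75 and 7.07 in 22Rv1DR. The epithelial markers KRT8, KRT18 and EPCAM were present in every group. KLK3, HOXB13 and CDH1 were listed at 0 in DU145DR and were measured in 22Rv1DR. The endothelial markers PECAM1 and VWF, 1 of 2 blood markers (PTPRC) and 2 of 3 fibroblast markers (COL3A1 and DCN) were listed at 0 everywhere. The third fibroblast marker, COL1A1, stood at 1.06 FPKM in DU145DR controls against 2.65 and 2.22 with the constructs, and at 8.35, 7.70 and 8.62 in 22Rv1DR. The second blood marker, CD68, was measured in every group, at 15.6, 12.5 and 12.9 FPKM in DU145DR (control, construct 1 and construct 2) and at 1.74, 2.503 and 2.11 in 22Rv1DR. The part of COL1A1 and CD68 in the results was not tested. Library 4C stood apart: the SD of its log2 difference from 5C was 0.25 over 10337 symbols, against 0.08 to 0.12 in the other 5 pairs. Changes of members called with construct 2 in 22Rv1DR are therefore also given without 4C, while most values of listed genes include it. Lanes 1 and 2 held the 6 DU145DR libraries together with 4A, and lanes 3 and 4 held the remaining 22Rv1DR libraries, so leaving out 4A gives a 22Rv1DR comparison within 1 lane pair.

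In control cells MYC was the most abundant member of both lines and MXD1 the least abundant of those measured. MYC stood at 118 and 113 FPKM in the DU145DR controls 1A and 2A, and at 86.1 and 87.4 in the 22Rv1DR controls 4A and 5A. MAX followed in DU145DR with 34.2 and 34.0 FPKM. MLX (21.8 to 23.6), MXD4 (21.3 to 22.6) and MXI1 (21.4 to 21.8) came next with overlapping libraries. MXD3 (15.3 and 15.4), MNT (6.59 and 6.71) and MXD1 (1.82 and 2.07) were lower and did not overlap with their neighbours. In 22Rv1DR the order after MYC was MLX (35.2 and 35.9 FPKM), MXI1 (19.5 and 20.2) and MXD3 (15.7 and 16.2). MXD4 (14.8 and 15.2) and MAX (14.0 and 15.7) overlapped each other there, and MNT (6.26 and 6.50) and MXD1 (1.71 and 1.83) were again lowest.

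**Figure D1:**
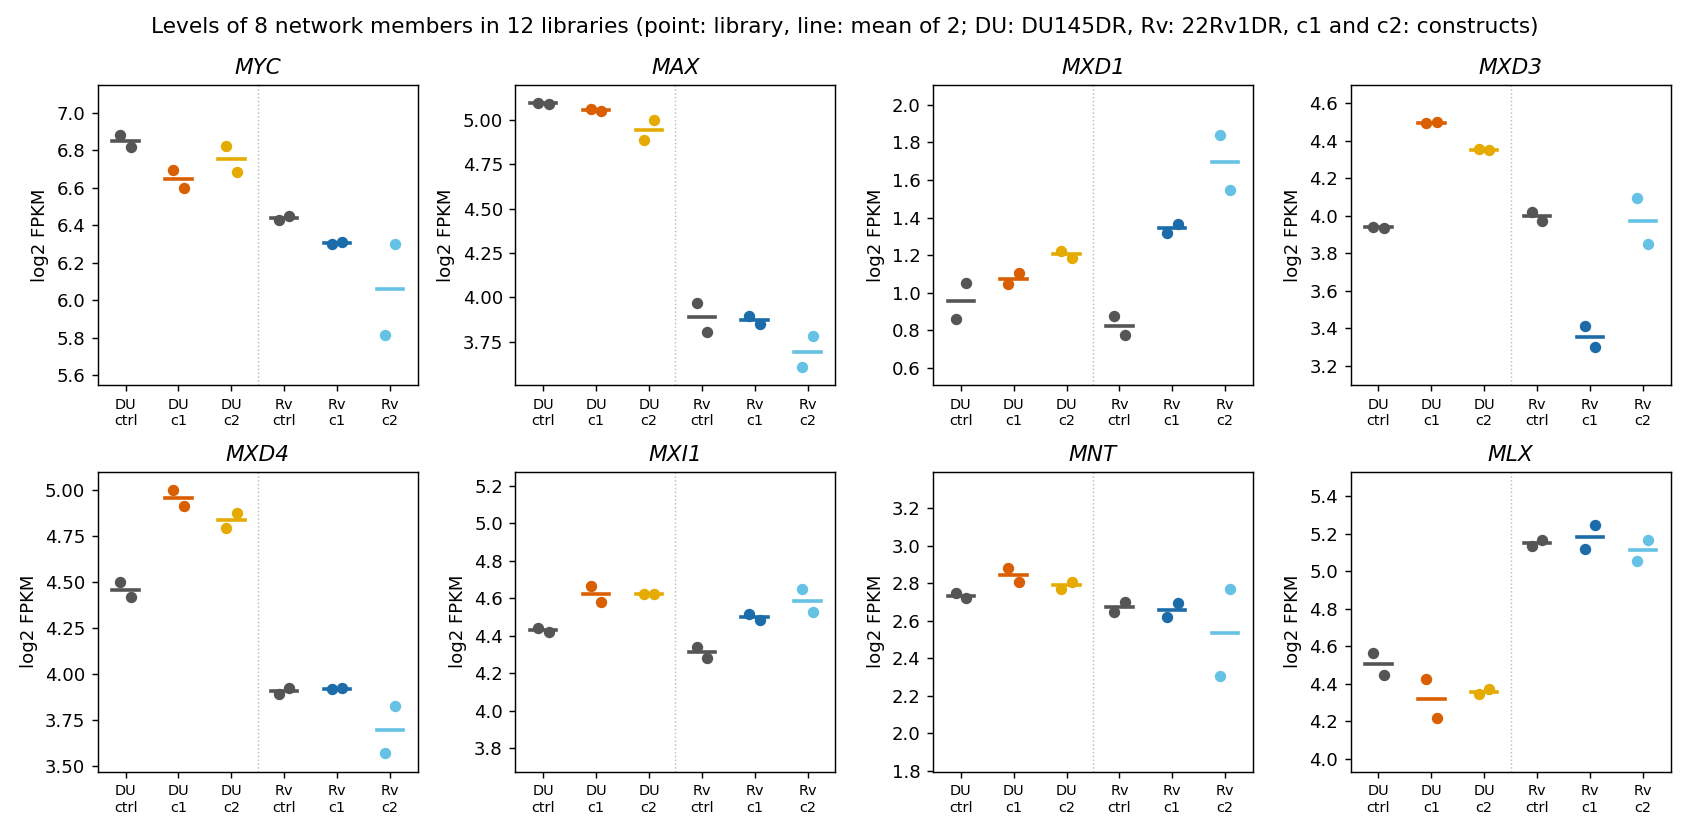
Log2 FPKM of each measured member in every library (points, the mean of 2 lanes) with the mean of the 2 libraries of each group (lines). Each panel has its own vertical axis. MXD3 and MXD4 are higher with both constructs in DU145DR, MXD1 is higher with both in 22Rv1DR, and library 4C is the lowest point of MYC.

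The control lines differed in 4 of 8 members, where 83% of all symbols tested were called (40.3% higher and 42.7% lower in 22Rv1DR). MAX was at 14.8 FPKM in 22Rv1DR and 34.1 in DU145DR (log2 difference -1.21 ± 0.07, adjusted p = 1.44e-07). MXD4 was also lower in 22Rv1DR (-0.55 ± 0.08, adjusted p = 0.000107), as was MYC (-0.41 ± 0.13, adjusted p = 0.0123). MLX was higher in 22Rv1DR by 0.65 ± 0.08 (adjusted p = 3.03e-05). MXD1 (-0.13), MXD3 (0.06), MXI1 (-0.12) and MNT (-0.06) did not pass. The MYC difference did not pass without 1A (adjusted p = 0.0628) or 4A (adjusted p = 0.055). MXI1 passed without 4C (adjusted p = 0.0176) or 5C (adjusted p = 0.0175), and MXD1 passed after quantile normalization (-0.50, adjusted p = 0.00802). The line and the culture it came from cannot be told apart here, as each line is a single subline, and fewer cells of a kind cannot be told apart from less RNA per cell.

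In DU145DR, 3 repressor partners of MAX were higher with both constructs than in controls: MXD3, MXD4 and MXI1. The MXI1 calls stood close to the threshold. With construct 1, 3 of 8 members rose and 0 fell, where 12.2% of all symbols tested rose and 7.62% fell (1 member was lower at an unadjusted p under 0.05). With construct 2, 3 of 8 rose and 0 fell, against 11% and 5.62% of all symbols (0 members were lower at an unadjusted p under 0.05). Both comparisons use the same control libraries.

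MXD3, an MXD protein that is known to be expressed in S phase, rose most. It stood at 15.4 and 15.3 FPKM in controls 1A and 2A, at 22.5 and 22.6 in 1B and 2B, and at 20.5 and 20.4 in 1C and 2C. Libraries of a group lay close together, and the construct groups did not overlap with controls. The log2 fold change was 0.56 ± 0.08 with construct 1 (adjusted p = 0.00147) and 0.41 ± 0.08 with construct 2 (adjusted p = 0.00641). MXD4 is an MXD protein linked with differentiation and growth arrest. It was at 22.6 and 21.3 FPKM in controls, 31.9 and 30.04 in 1B and 2B, and 27.7 and 29.3 in 1C and 2C. All 4 knockdown libraries were above both controls, by 0.50 ± 0.08 (adjusted p = 0.00309) and 0.38 ± 0.08 (adjusted p = 0.0123). MXD4 with construct 2 did not pass without 2A (adjusted p = 0.0882) or 2C (adjusted p = 0.0817).

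MXI1, a candidate tumour suppressor of prostate cancer, rose less. Controls were at 21.8 and 21.4 FPKM, 1B and 2B at 25.4 and 23.9, and 1C and 2C at 24.6 and 24.6. The groups did not overlap, and the log2 fold changes were 0.19 ± 0.05 with each construct (adjusted p = 0.0354 and 0.0415). These calls stood close to the threshold and passed in 10 and 9 of 22 alternative settings. Leaving out any one library other than 4C and 5C ended them, with adjusted p values of 0.051 to 0.213 for construct 1 and 0.0509 to 0.176 for construct 2.

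MXD1, the first described MXD protein, was at 1.82 and 2.07 FPKM in DU145DR controls, close to the floor. It stood at 2.06 and 2.15 with construct 1, which overlapped with controls, and at 2.33 and 2.28 with construct 2, which did not. Neither change passed (0.12 ± 0.10, adjusted p = 0.49, and 0.25 ± 0.10, adjusted p = 0.134). MNT, the broadly expressed repressor partner of MAX, was between 6.59 and 7.37 FPKM in the 6 libraries (0.11 and 0.05).

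The activating arm did not pass in DU145DR. MYC was at 118 and 113 FPKM in controls, 104 and 97.0 in 1B and 2B, and 113 and 103 in 1C and 2C. The construct 1 libraries were both below controls, by -0.20 ± 0.13 (adjusted p = 0.319), and 1C was slightly above 2A (-0.10 ± 0.13, adjusted p = 0.708 for construct 2). The standard error of MYC is shared by all 6 groups and carries the gap between 4C and 5C: without 4C or 5C the same change of -0.20 with construct 1 had an adjusted p of 0.0156. MXD1 with construct 2 also passed without 4C (adjusted p = 0.0325) or 5C (adjusted p = 0.0323). MAX was at 34.2 and 34.0 FPKM in controls, 33.4 and 33.1 with construct 1, and 29.6 and 32.0 with construct 2 (-0.04 and -0.15, adjusted p = 0.846 and 0.205). MLX, the partner of the glucose sensors, ranged from 21.8 to 23.6 FPKM in controls and from 18.6 to 21.5 in the knockdown libraries (-0.19 and -0.15, adjusted p = 0.132 and 0.244).

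**Figure D2:**
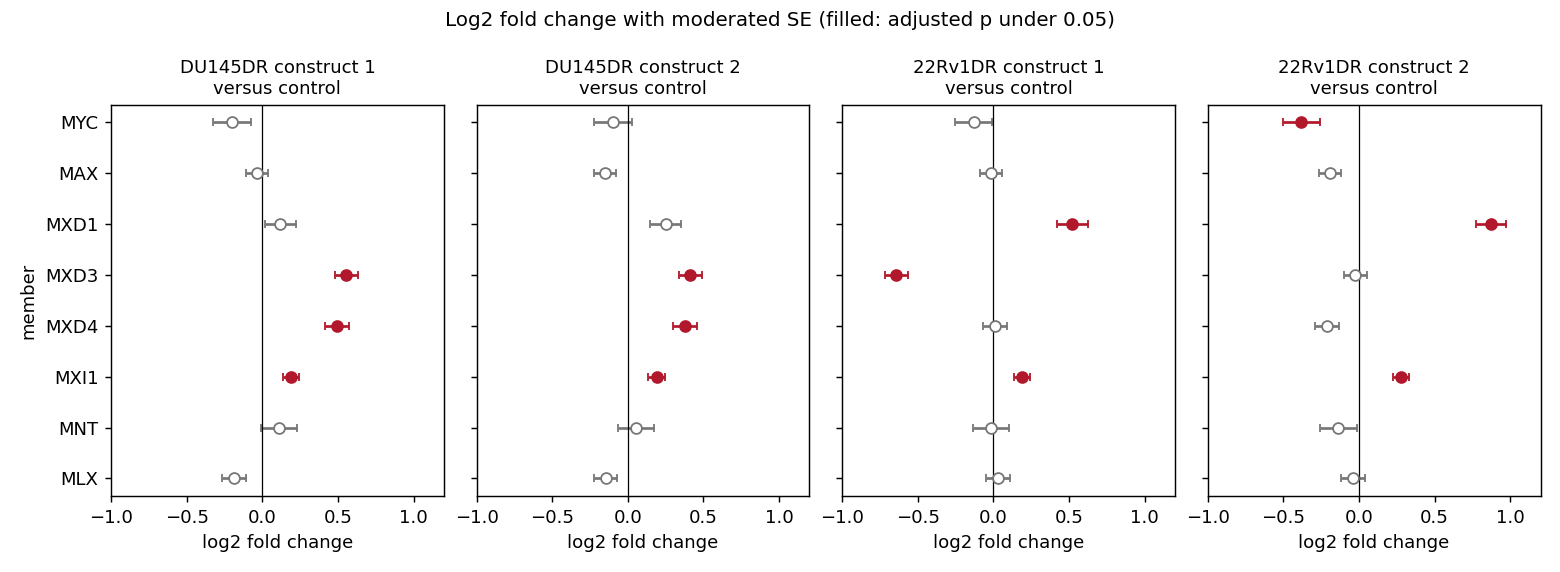
Log2 fold change of each measured member against control, by line and construct (points), with the moderated standard error (bars). Filled points passed an adjusted p under 0.05: MXD3, MXD4 and MXI1 in DU145DR, MXD1, MXD3 and MXI1 with construct 1 in 22Rv1DR, and MYC, MXD1 and MXI1 with construct 2 in 22Rv1DR.

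In 22Rv1DR the members that passed were partly others. MXD1 and MXI1 rose with both constructs, MXD3 fell with construct 1, and MYC passed as lower with construct 2 in a result that rests on library 4C. With construct 1, 2 of 8 members rose and 1 fell, where 12% of all symbols rose and 15.2% fell. With construct 2, 2 rose and 1 fell, against 14.5% and 20.6% of all symbols. Without 4C, 2 members passed with construct 2, both higher.

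MXD1 stood at 1.83 and 1.71 FPKM in 22Rv1DR controls, again close to the floor. It was at 2.496 and 2.58 in 4B and 5B, and at 3.59 and 2.92 in 4C and 5C. All 4 knockdown libraries were above both controls. The log2 fold change was 0.52 ± 0.10 with construct 1 (adjusted p = 0.00544) and 0.87 ± 0.10 with construct 2 (adjusted p = 0.000527). Without 4C the latter was 0.73 (adjusted p = 0.000579). Fitted on 22Rv1DR alone, MXD1 with construct 1 did not pass (adjusted p = 0.085).

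MXI1 was at 20.2 and 19.5 FPKM in controls, 22.9 and 22.4 with construct 1, and 25.1 and 23.0 with construct 2. Controls lay below every knockdown library. The increases were 0.19 ± 0.05 (adjusted p = 0.0282) and 0.28 ± 0.05 (adjusted p = 0.00493), and the latter was 0.21 without 4C (adjusted p = 0.0097). With construct 1 the call was lost without 4A, 5A, 4B or 5B (adjusted p = 0.0631, 0.154, 0.146 and 0.0913).

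MXD3 differed between the constructs. It was at 16.2 and 15.7 FPKM in controls, at 10.6 and 9.83 with construct 1, and at 17.1 and 14.4 with construct 2. Construct 1 libraries were below all others, and the construct 2 libraries lay on either side of the controls. The log2 fold change was -0.64 ± 0.08 with construct 1 (adjusted p = 0.000398) and -0.02 ± 0.08 with construct 2 (adjusted p = 0.878; -0.15, adjusted p = 0.0549 without 4C). Tested directly, MXD3 was higher with construct 2 than with construct 1 by 0.62 ± 0.08 (adjusted p = 0.00235), and by 0.49 without 4C (adjusted p = 0.000651). It was the 1 member of 8 called between the constructs in 22Rv1DR, where 7.3% of all symbols were higher and 4.28% lower with construct 2. Fitted on 22Rv1DR alone this difference did not pass (adjusted p = 0.115). Without 5C, so with 4C alone for construct 2, 7 of 8 members passed between the constructs: MYC (-0.49), MAX (-0.27), MXD4 (-0.35) and MNT (-0.35) lower, and MXD1 (0.50), MXD3 (0.74) and MXI1 (0.15) higher. In DU145DR 0 of 8 members differed between the constructs, and 0 did so at an unadjusted p under 0.05. There 0.022% of all symbols were called by limma, 3 of 13622, and 725 had an unadjusted p under 0.05.

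Reads of MXD3 cannot be assigned to a strand, since this library kit does not keep it. In GENCODE v29 (GRCh38), 1158 of the 5154 exon bases of MXD3, or 22.5%, also lie in exons of PRELID1 on the opposite strand, which encodes a mitochondrial lipid carrier. PRELID1 stood at 89.8 FPKM in DU145DR controls and at 80.7 and 85.0 with the constructs (-0.15 and -0.08, adjusted p = 0.389 and 0.733). Neither value passed, and MXD3 stood at 0.56 and 0.41 in these comparisons. In 22Rv1DR PRELID1 fell from 91.0 to 69.0 and 69.4 FPKM (-0.40, adjusted p = 0.025, and -0.39, adjusted p = 0.0225). MXD3 stood there at -0.64 with construct 1 and at -0.02 with construct 2. The part of PRELID1 in the MXD3 values was not tested. MLX shares 18.1% of its exon bases with PSMC3IP on the opposite strand, and MAX shares 0 with the overlapping FNTB. PSMC3IP stood at 13.8 FPKM in DU145DR controls and at 23.7 in 22Rv1DR controls, where MLX stood at 22.7 and 35.5. With constructs 1 and 2 PSMC3IP stood at 11.6 and 11.5 FPKM in DU145DR and at 7.02 and 15.3 in 22Rv1DR. The part of PSMC3IP in the MLX values, including the difference between the lines, was not tested.

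MYC in 22Rv1DR was at 86.1 and 87.4 FPKM in controls, 78.9 and 79.5 with construct 1, and 56.4 and 78.8 in 4C and 5C. Library 4C was far below all others, and 5C was level with the construct 1 libraries. All 4 knockdown libraries were below both controls. The log2 fold change was -0.13 ± 0.13 with construct 1 (adjusted p = 0.496) and -0.38 ± 0.13 with construct 2 (adjusted p = 0.0419). Without 4C the construct 2 change was -0.14 (adjusted p = 0.118), and the call passed in 5 of 22 alternative settings. Among the 12 settings that leave out 1 library it passed only without 5C, and the adjusted p was 0.127 without 4A.

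The remaining members did not pass in 22Rv1DR with either construct. MAX was at 15.7 and 14.0 FPKM in controls, 14.9 and 14.4 with construct 1, and 12.2 and 13.7 with construct 2 (-0.02 and -0.19, adjusted p = 0.961 and 0.0655). MXD4 was at 14.8 and 15.2 in controls, 15.1 and 15.1 with construct 1, and 11.8 and 14.2 with construct 2 (0.01 and -0.21, adjusted p = 0.99 and 0.0679). MNT was between 6.15 and 6.50 in controls and construct 1, and at 4.95 and 6.80 in 4C and 5C. MLX was between 33.3 and 38.0 FPKM in all 6 libraries. For MAX, MXD4 and MNT library 4C held the lowest value of the line. Without 5C, so with 4C alone for construct 2, their changes were -0.28, -0.34 and -0.37. Without 4C they were -0.11, -0.08 and 0.09, so the sign of MNT turned.

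The effect of knockdown differed between the lines for 3 MXD genes. POM121 itself fell further in 22Rv1DR (38.2 to 7.75 and 7.07 FPKM) than in DU145DR (21.4 to 13.4 and 12.8). Line and depth of knockdown therefore cannot be told apart. The test compares the mean effect of both constructs in 22Rv1DR with that in DU145DR, and it called 3 of 8 members, 1 higher and 2 lower. Of all symbols, 8.93% were higher and 15.9% lower by this test. MXD3 moved by 0.49 in DU145DR and by -0.33 in 22Rv1DR, a difference of -0.82 ± 0.09 (adjusted p = 0.000657). Its 22Rv1DR mean joins 2 constructs that differed, -0.64 with construct 1 and -0.02 with construct 2. MXD4 moved by 0.44 and -0.10, a difference of -0.54 ± 0.10 (adjusted p = 0.00517). MXD1, close to the floor in controls of both lines, moved by 0.18 and 0.70, a difference of 0.51 ± 0.12 (adjusted p = 0.0179). The MXD1 difference did not pass without 2A (adjusted p = 0.0883) or 5A (adjusted p = 0.0808), nor from the lower-numbered lane alone (0.47, adjusted p = 0.0766). MXI1 (0.04), MYC (-0.11), MAX (-0.01), MNT (-0.16) and MLX (0.16) did not pass. Without 5C, MYC (-0.23, adjusted p = 0.0188) and MNT (-0.27, adjusted p = 0.00783) passed as well. The direct differences for MXD3 and MXD4 were -0.88 and -0.47 without 4C.

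Because FPKM is per length, the members can be summed within a library. MYC made up 48.1% ± 0.3 (SD, n = 2) of the summed FPKM of the network in DU145DR controls, 41.6% ± 0.3 with construct 1 and 44.6% ± 2.2 with construct 2. In 22Rv1DR its share was 44.2% ± 0.5 in controls, 42.3% ± 0.2 with construct 1, and 34.3% and 41.5% in 4C and 5C. The MYC share of every knockdown library was below that of both controls of its line. MXD4 rose from 9.17% to 12.9% and 11.8% of the sum in DU145DR, and MXD3 from 6.404% to 9.36% and 8.45%. In 22Rv1DR MLX held 18.1% of the control sum against 9.49% in DU145DR, and MAX 7.56% against 14.3%. These shares are descriptions of the same values as above and were not tested.

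**Figure D3:**
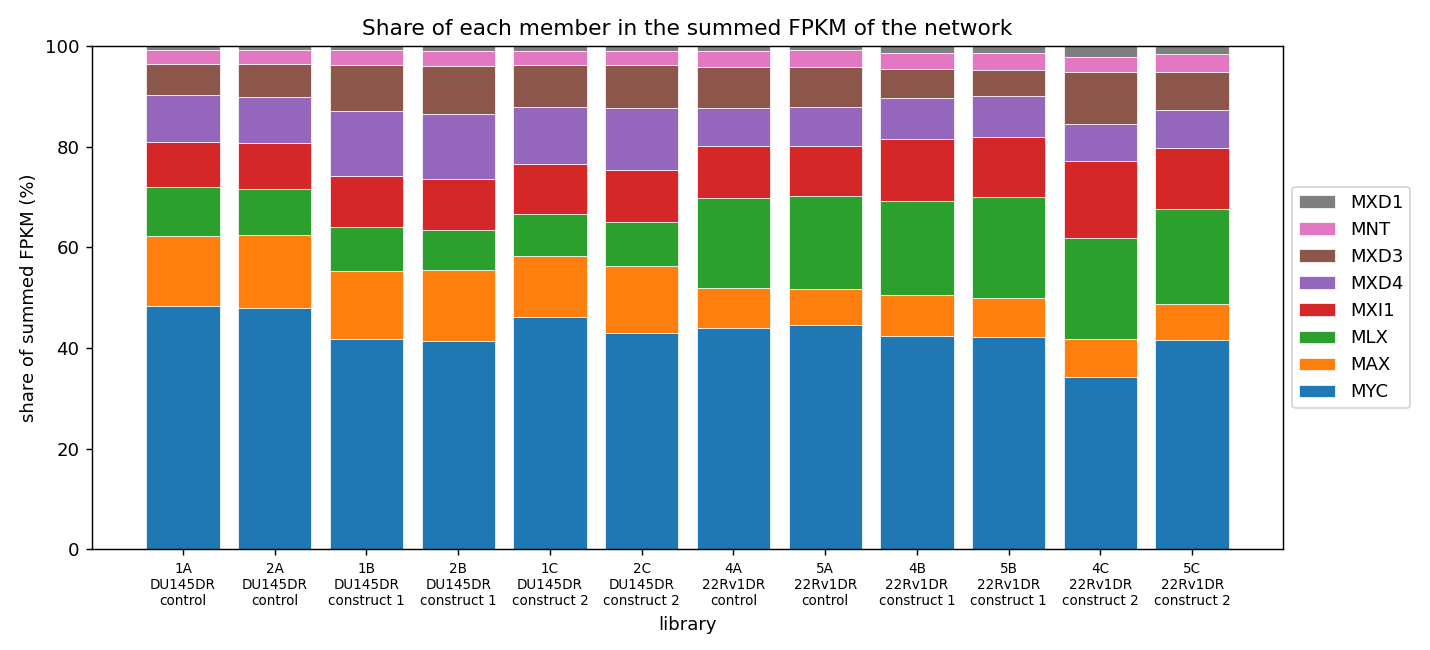
Share of each measured member in the summed FPKM of the network (stacked bars, in percent), by library. The MYC share is 47.9% to 48.3% in DU145DR controls and 41.4% to 46.2% with the constructs, and it is lowest in library 4C at 34.3%.

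The 5 repressor partners of MAX (MXD1, MXD3, MXD4, MXI1 and MNT) summed to 68.2 and 66.7 FPKM in the DU145DR controls. Their sum was 89.3 and 85.6 FPKM with construct 1 and 81.9 and 83.6 with construct 2, so the groups did not overlap. In 22Rv1DR the sum was 59.3 and 58.6 FPKM in controls, 57.3 and 56.4 with construct 1, and 62.6 and 61.3 with construct 2. The sum was thus slightly below the controls with construct 1, where MXD3 was lower, and slightly above them with construct 2. MYC RNA per unit of repressor RNA was 1.73 and 1.69 in DU145DR controls, 1.16 and 1.13 with construct 1, and 1.38 and 1.23 with construct 2. In 22Rv1DR it was 1.45 and 1.49 in controls, 1.38 and 1.41 with construct 1, and 0.901 and 1.28 in 4C and 5C. Every knockdown library had a lower ratio than both controls of its line. No test was made on these ratios, whose members were already tested singly.

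**Figure D4:**
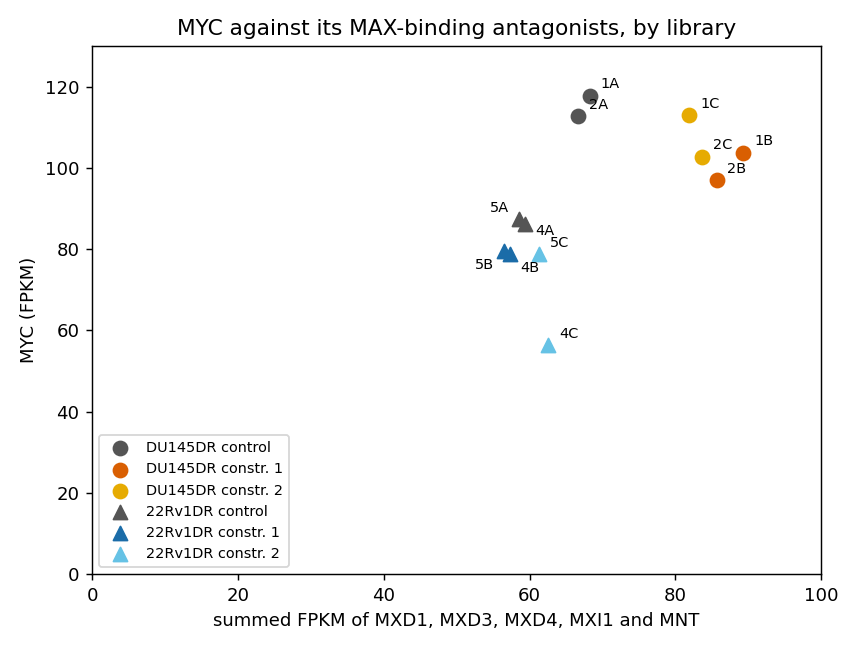
MYC (FPKM, vertical axis) against the summed FPKM of MXD1, MXD3, MXD4, MXI1 and MNT (horizontal axis), 1 point per library with its code. DU145DR knockdown libraries lie to the right of their controls (81.9 to 89.3 against 66.7 and 68.2), and 4C lies below all others at 56.4.

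Among genes that MYC is known to activate, 18 to 28 of 39 fell in each comparison with control. This list was drawn up with earlier results of these data known, and a lower level of such genes in DU145DR had been seen, so its direction is no independent evidence. Of 39 listed genes tested, 0 rose and 21 fell with construct 1 in DU145DR, and 0 rose and 18 fell with construct 2 (at an unadjusted p under 0.05, 0 were higher with either). In 22Rv1DR 1 rose and 23 fell with construct 1, and 0 rose and 28 fell with construct 2 (1 was higher at an unadjusted p under 0.05). Of all symbols, 7.62%, 5.62%, 15.2% and 20.6% fell in these comparisons, and 12.2%, 11%, 12% and 14.5% rose. Median log2 fold changes were -0.35, -0.27, -0.27 and -0.40 in this order, against 0, 0, 0 and -0.03 over all symbols tested. The counts depend on the libraries: between 11 and 34, 9 and 31, 11 and 31, and 20 and 31 fell when 1 library was left out, with 34, 31, 31 and 30 without 4C.

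ODC1, the first enzyme of polyamine synthesis, fell from 199 FPKM in DU145DR controls to 118 and 131 (-0.76 ± 0.06, adjusted p = 0.000189, and -0.61 ± 0.06, adjusted p = 0.000655). DKC1, which encodes the pseudouridine synthase dyskerin, fell from 79.2 to 53.2 and 57.9 FPKM in DU145DR and from 39.7 to 26.6 and 30.5 in 22Rv1DR, with adjusted p values of 0.000189, 0.000686, 6.85e-05 and 0.00079. GNL3 (nucleostemin) and RRP12, both factors of ribosome assembly, fell in DU145DR from 115 to 80.4 and 89.6 FPKM and from 43.1 to 27.3 and 27.2. NCL (nucleolin) fell in 22Rv1DR from 294 to 230 and 214 FPKM, and NOP56, a core protein of box C/D snoRNPs, from 89.4 to 64.3 and 60.1. TERT, the catalytic subunit of telomerase, fell in 22Rv1DR from 2.35 to 1.09 and 1.27 FPKM, which is close to the floor. LDHA, lactate dehydrogenase A, was the 1 listed gene that rose (0.26 ± 0.05 with construct 1 in 22Rv1DR, adjusted p = 0.005), and it is named here after its value was seen.

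Among genes that MYC is known to repress, 6 or 7 of 9 rose in each comparison. This list too was chosen with earlier results of these data known, so its direction is no independent evidence. The number was 7 with each construct in DU145DR and 6 with each in 22Rv1DR, where 12.2%, 11%, 12% and 14.5% of all symbols rose. None of the 9 fell by limma in any of the 4 comparisons (0 were lower at an unadjusted p under 0.05). Of all symbols, 7.62%, 5.62%, 15.2% and 20.6% fell there. Median log2 fold changes were 0.41, 0.41, 0.56 and 0.52. CDKN1C, an inhibitor of cyclin-dependent kinases, rose in DU145DR from 1.74 to 3.50 and 3.04 FPKM and in 22Rv1DR from 4.83 to 9.44 and 11.2 (log2 fold changes 1.01, 0.81, 0.96 and 1.21). CDKN1A, the p53-responsive inhibitor of the same kinases, rose from 15.0 to 19.8 and 19.4 FPKM in DU145DR and from 73.4 to 120 and 106 in 22Rv1DR. NDRG1, a stress-responsive gene, rose from 44.1 to 58.0 and 58.5 FPKM in DU145DR and from 25.6 to 49.3 and 39.0 in 22Rv1DR. CDKN2B, an inhibitor of CDK4 and CDK6, rose from 2.51 to 4.43 and 4.18 FPKM in DU145DR. GADD45A, a DNA damage response gene, rose from 20.0 to 34.4 and 37.0 FPKM in 22Rv1DR. These genes also answer to other factors, p53 among them, whose part was not tested.

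**Figure D5:**
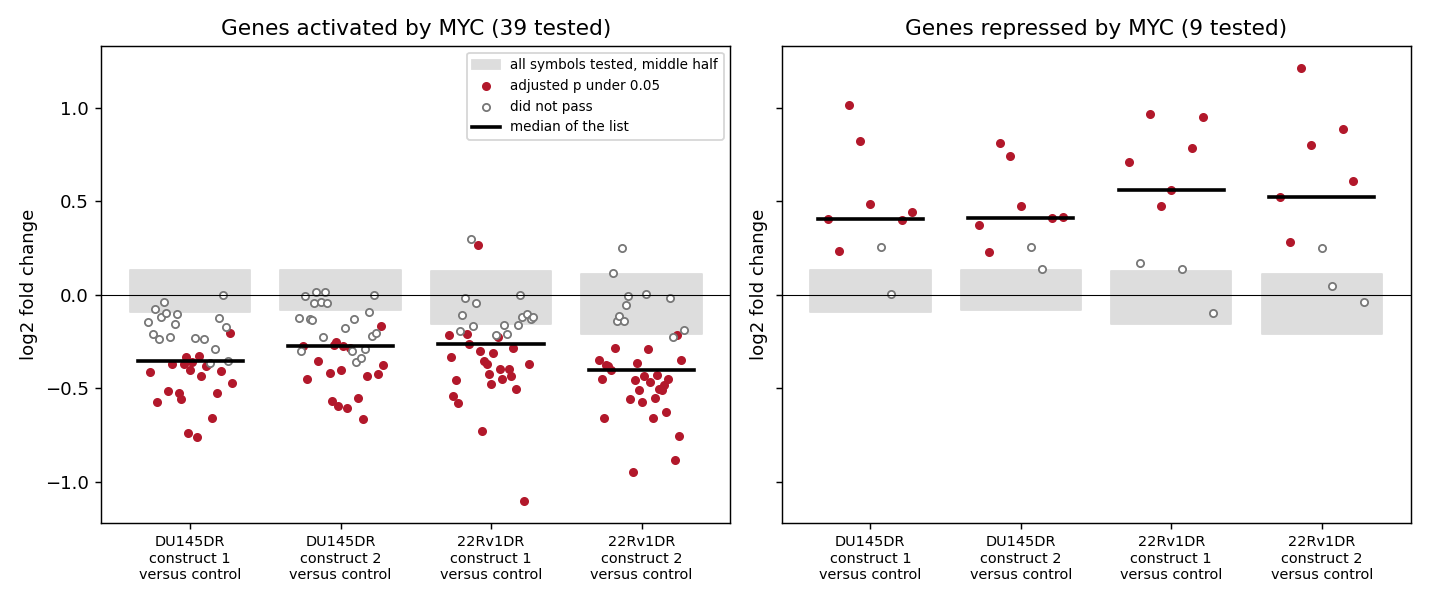
Log2 fold change against control of genes activated by MYC (left, 39 tested) and repressed by MYC (right, 9 tested), 1 point per gene, in each line and construct. Both lists were chosen with earlier results of these data known. Filled points passed an adjusted p under 0.05, black lines are list medians and grey bands hold the middle 50% of all symbols tested; medians are -0.27 to -0.40 on the left and 0.41 to 0.56 on the right.

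Of the 16 listed cofactors that MYC recruits or binds, 0 rose in DU145DR with either construct (0 higher at an unadjusted p under 0.05). There 4 fell with construct 1 and 3 fell with construct 2. In 22Rv1DR 0 rose and 9 fell with construct 1 (0 higher at an unadjusted p under 0.05), and 1 rose and 9 fell with construct 2. This list and those that follow were also chosen with earlier results of these data known, so their direction is no independent evidence. The shares of all symbols that fell were 7.62%, 5.62%, 15.2% and 20.6% in the 4 comparisons. Those that rose were 12.2%, 11%, 12% and 14.5%. WDR5, a subunit of histone methyltransferase complexes that anchors MYC on chromatin, fell from 31.8 to 26.2 and 26.8 FPKM in DU145DR and from 25.3 to 19.0 and 16.3 in 22Rv1DR. HCFC1, another cofactor that binds MYC, fell from 29.1 to 24.2 and 24.2 FPKM and from 18.6 to 12.7 and 14.1. SMARCB1, a subunit of the SWI/SNF remodeller, fell in 22Rv1DR from 63.1 to 41.2 and 50.6 FPKM, and EP400, the ATPase of the TIP60 complex, from 12.97 to 10.3 and 9.98. RUVBL1 fell in DU145DR with construct 1 (-0.31, adjusted p = 0.0254) and did not pass with construct 2 (-0.17, adjusted p = 0.185). The numbers that fell with 1 library left out ranged over 1 to 5, 0 to 5, 5 to 11 and 6 to 12 in the 4 comparisons.

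The SIN3 corepressor, through which the MXD proteins and MNT act, had about as many subunits called higher as the share of all symbols gives. Of its 13 subunits listed, 1 and 2 rose and 0 fell in DU145DR with constructs 1 and 2 (0 lower at an unadjusted p under 0.05), and 1 and 2 rose and 4 and 4 fell in 22Rv1DR. Of all symbols, 12.2% and 11% rose and 7.62% and 5.62% fell in DU145DR, and 12% and 14.5% rose and 15.2% and 20.6% fell in 22Rv1DR. HDAC1, a histone deacetylase, moved in opposite directions in the lines: in DU145DR it rose from 104 to 119 and 118 FPKM (0.20, adjusted p = 0.0272, and 0.18, adjusted p = 0.0414) and fell from 194 to 171 and 163 in 22Rv1DR (-0.18, adjusted p = 0.0285, and -0.25, adjusted p = 0.00693). RBBP4, a histone-binding subunit, fell in 22Rv1DR from 24.6 to 17.5 and 18.2 FPKM, and ARID4B rose from 13.7 to 16.9 and 15.5. ING1 passed in DU145DR with construct 2 (0.22, adjusted p = 0.0344) and not with construct 1 (0.13, adjusted p = 0.156). RBBP7 fell in 22Rv1DR with construct 1 (-0.26, adjusted p = 0.00138) and stood at -0.03 with construct 2.

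Genes that set the stability of the MYC protein were called about as often as all symbols in 22Rv1DR. Of 16 tested, 0 rose and 2 fell with each construct in DU145DR (3 and 0 were higher at an unadjusted p under 0.05), and in 22Rv1DR 2 rose and 4 fell with construct 1 and 3 rose and 3 fell with construct 2, where 12% and 14.5% of all symbols rose and 15.2% and 20.6% fell. In DU145DR 12.2% and 11% of all symbols rose and 7.62% and 5.62% fell. AURKA, a mitotic kinase known to stabilise MYC family proteins, fell from 48.8 to 41.7 and 42.6 FPKM in DU145DR and from 28.4 to 18.7 and 23.4 in 22Rv1DR. USP36, a nucleolar deubiquitinase of MYC, fell in DU145DR from 11.4 to 8.95 and 9.08. In 22Rv1DR FBXW7, the ubiquitin ligase subunit that marks MYC for degradation, rose from 5.17 to 6.10 and 7.01 FPKM (0.24, adjusted p = 0.0412, and 0.44, adjusted p = 0.00251). PPP2R5A, a regulatory subunit of the phosphatase PP2A, rose there from 23.4 to 31.4 and 29.9. KIAA1524 (CIP2A), an inhibitor of that phosphatase, fell with construct 1 (-0.68, adjusted p = 0.000361) and stood at -0.13 with construct 2 (adjusted p = 0.232). SET and USP28 did not pass in DU145DR.

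The other partners of MAX and MLX were low or moved little. MYCL, the third MYC paralogue, stood at 1.72 FPKM in DU145DR controls and at 1.49 in 22Rv1DR controls, and it rose to 2.02 with construct 2 in 22Rv1DR (0.44 ± 0.10, adjusted p = 0.00971; 0.35, adjusted p = 0.0416 without 4C). MLXIPL, the glucose sensor ChREBP, passed as higher with construct 1 in DU145DR (0.40 ± 0.12, adjusted p = 0.0409), where it lay at 1.12 FPKM in controls, next to the floor. MLXIP was lower with construct 2 in 22Rv1DR (-0.31, adjusted p = 0.0331), and this did not pass without 4C (-0.15, adjusted p = 0.131). MGA, a MAX partner of the variant Polycomb complex, did not pass in any of the 4 comparisons (-0.06 to 0.08).

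Of 6 glucose-responsive genes of the MLX partners, 2 fell in each of the 4 comparisons and 1 rose, with construct 2 in 22Rv1DR (1 was higher at an unadjusted p under 0.05 in each of the other 3). Over all symbols 5.62% to 20.6% fell and 11% to 14.5% rose in these comparisons, and 6 genes are too few to be set against such shares. KLF10, a TGF-beta-inducible repressor, fell in DU145DR from 41.0 to 28.01 and 29.2 FPKM (-0.55 and -0.49, adjusted p = 0.000263 and 0.000552) and stood at 16.7, 18.3 and 18.5 in 22Rv1DR (0.13, adjusted p = 0.0798, and 0.15, adjusted p = 0.0467). ARRDC2, an arrestin-domain gene, fell in DU145DR from 9.37 to 7.90 and 7.61 FPKM. FASN, fatty acid synthase, fell in 22Rv1DR from 71.1 to 59.7 and 52.4 (-0.25, adjusted p = 0.0356, and -0.44, adjusted p = 0.00262), and it stood at 0.09 and 0.03 in DU145DR without passing. ARRDC4 fell in 22Rv1DR with construct 1 (-0.27, adjusted p = 0.00873).

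The genes whose levels followed those of a member most closely were sought among 8425 symbols above the floor in all samples and with a mean of at least 5 FPKM, taken on the log2 scale. The measure was Pearson's r over 12 libraries after each line was centred on its own mean; the libraries share their groups, so r is given as a description. For MYC these were ALDH1B1 (0.98), ACLY (0.98) and FTSJ2 (0.97), and r was 0.92, 0.90 and 0.95 without 4C. ALDH1B1 is a mitochondrial aldehyde dehydrogenase and ACLY is ATP citrate lyase. For MAX they were APPL2 (0.94), ZNF75A (0.92) and LSM14A (0.92), with 0.88, 0.86 and 0.82 without 4C. MXD1, close to the floor in controls of both lines, was the member with the largest absolute effects summed over the lines (0.88). Among its 3 closest genes were UHMK1 and ARRDC3, each at 0.98, and 0.97 for each without 4C. UHMK1 is a serine/threonine kinase and ARRDC3 an alpha-arrestin.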

How the data were processed

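Poly(A) RNA of 12 libraries, 2 lanes each, was sequenced from TruSeq RNA v2 preparations, per the labels' protocols. Reads were handled with TopHat and Cufflinks and the builds hg19 and mm10 are named, per the submitters' processing notes; versions are not given in the sources used here. The deposited values are log2 FPKM, with values at or under 1 FPKM set to 0. The unit was taken from the values: 100% of those above 0 turn into numbers of 6 significant digits as powers of 2. Read counts are not used here, so depth is unknown and no counting interval is given. Between 11884 and 12569 symbols were above the floor per sample.

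Lanes were averaged on the log2 scale. Symbols with both lanes above the floor in at least 2 of 12 libraries (13622) were fitted with limma 3.58.1 in R 4.3.3, with 1 mean per group, all 6 groups sharing the spread (6 residual degrees of freedom), trend and robust options, 2-sided tests and Benjamini-Hochberg adjustment. The fit was tested on simulated data. Alternatives were pseudocounts, filters, quantile normalization, a replicate block, array weights, each line alone, single lanes and each library left out. The members and gene lists were chosen with earlier results of these data known. All 9 members are named, and of each list up to 4 symbols with the smallest p per line. Results for 4 genes, 2 of them markers and 2 that the rules for named genes pick, are not reported here.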

Additional observations from a re-analysis of the deposited data

Results flagged for a closer look

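Members whose response to POM121 knockdown differed between the lines are given here. The test was the mean effect of both constructs in 22Rv1DR minus that in DU145DR. POM121 itself fell further in 22Rv1DR, so line and depth of knockdown cannot be told apart. MXD3 differed by -0.82 on the log2 scale (adjusted p = 0.000657), being higher in all 4 knockdown libraries of DU145DR and lower in 3 of 4 of 22Rv1DR. The constructs differed in 22Rv1DR, where MXD3 stood at -0.64 with construct 1 and -0.02 with construct 2. MXD4 differed by -0.54 (adjusted p = 0.00517), with all 4 knockdown libraries above both controls in DU145DR. MXD1, close to the floor in controls of both lines, differed by 0.51 (adjusted p = 0.0179), with all 4 knockdown libraries above both controls in 22Rv1DR. Groups hold 2 libraries, too few for a check of single outlying values.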

How the results depend on the processing

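Of 1392 values of single members under alternative settings, 1279 kept their direction and side of the threshold. Among the 20 member results that passed, 374 alternatives kept the call, 59 lost it and 0 reversed. Array weights called 4680 and 4090 symbols for constructs 1 and 2 in DU145DR (2700 and 2258 as reported), 6120 and 1532 in 22Rv1DR (3697 and 4783), and 7 and 131 between constructs in DU145DR and 22Rv1DR (3 and 1577). They left 1 member called with construct 2 in 22Rv1DR. Fitting each line alone called 1485 and 1516 symbols in 22Rv1DR, 71 and 0 between constructs in 22Rv1DR and DU145DR, 1 member with each construct in 22Rv1DR and 0 between its constructs. Single lanes called 887 and 874 symbols between constructs in 22Rv1DR and 7 and 6 in DU145DR, where pseudocounts of 1 and 0.5 FPKM gave 11 and 22, no filter 5 and a strict filter 0. The MYC share was 47.6% and 48.6% by single lane in DU145DR controls, 41.1% and 42.1% with construct 1, and 43.0% and 41.6% with construct 1 in 22Rv1DR. Quantile normalization called 2 members between the constructs in 22Rv1DR, the second being MXD4 (-0.22, adjusted p = 0.0381). It changed the split of higher and lower symbols from 1492 and 766 to 1362 and 1144 for construct 2 in DU145DR, and from 1217 and 2160 to 1777 and 1834 for the line difference. In none of these was the cause tested.

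With 1 library left out, a group of 1 library is assumed to vary like the others. Symbols called then ranged over 1299 to 4631 and 995 to 4136 for constructs 1 and 2 in DU145DR, 1928 to 5875 and 2456 to 7165 in 22Rv1DR, 2 to 28 and 223 to 5983 between constructs in DU145DR and 22Rv1DR, and 1689 to 6180 for the line difference. Members called ranged over 1 to 4 for construct 2 in DU145DR (1 without 2A or 2C), 2 to 6 for construct 2 in 22Rv1DR (6 without 5C), 1 to 7 between its constructs (7 without 5C) and 2 to 5 for the line difference (5 without 5C).

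Changes of sign occurred for values that had not passed. Under quantile normalization these were MAX (0.012) and MXD1 (-0.017) with construct 1 in DU145DR, MAX (0.025) and MNT (0.007) with construct 1 and MXD3 (0.026) and MLX (0.019) with construct 2 in 22Rv1DR, and MXI1 between controls (0.029). From the lower lane they were MLX with constructs 1 (-0.021) and 2 (0.087) and between them (0.11) and MXD3 with construct 2 (0.017) in 22Rv1DR, and the line difference of MAX (0.019). From the higher lane they were MXI1 (0.050) and MLX (-0.0063) between constructs in DU145DR. With 1 library left out, values that crossed 0 in 22Rv1DR ranged with construct 1 over -0.096 to 0.065 for MAX, -0.0054 to 0.031 for MXD4, -0.053 to 0.021 for MNT and -0.033 to 0.096 for MLX. With construct 2 they ranged over -0.15 to 0.10 for MXD3, -0.37 to 0.094 for MNT and -0.095 to 0.016 for MLX. Between constructs the range was -0.35 to 0.11 for MNT in 22Rv1DR, -0.046 to 0.043 for MXI1 and -0.066 to 0.14 for MLX in DU145DR. The line difference ranged over -0.23 to 0.013 for MYC and -0.093 to 0.069 for MAX.

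The replicate block called 2584, 2104, 3599 and 4742 symbols for the 4 comparisons with control, and 1 and 1315 between constructs in DU145DR and 22Rv1DR. It changed no member's call. Same-numbered libraries did not deviate together in every pair: r of their deviations was 0.23, 0.03 and 0.11 in DU145DR and -0.08, 0.10 and -0.04 in 22Rv1DR, so the numbers were not used as pairs. Unknown depth and 2 libraries per group limit the precision, and values under 1 FPKM, as for MYCN, are hidden.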
